A study of Mus musculus with 2 samples.

Results

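The genes described here are 40 members of the metzincin protease families and their inhibitors, read in 2 cell populations sorted from the mouse otocyst, the epithelial vesicle that gives rise to the inner ear. They are the matrix metalloproteinases (MMPs), the ADAM and ADAMTS proteases, the tissue inhibitors of metalloproteinases (TIMPs) and the membrane-anchored inhibitor Reck. They were taken by name, from probe sets (groups of array probes read as 1 value) that the platform's annotation assigns to 1 gene alone. This gave 81 of the 45101 probe sets, for 38 genes of 18194 named on the array. Mmp15 and Adamts2 had no probe set naming them alone and were not analysed here.

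Embryos were at E10.5, heterozygous for the transgene Tg(ETAR-EGFP)14Imeg. Dissected otocysts were dissociated with 0.25% trypsin, and fluorescence sorting split cells labelled as otocyst epithelium into EGFP-positive and EGFP-negative populations, both carrying the transgene and here called the positive and the negative cells. Per the labels, EGFP lies mainly in ventral and dorsomedial otocyst and is not expressed dorsolaterally. By the labels alone, the comparison would set these territories against each other. Each population was measured on 1 array from 1 µg of total RNA, and the number of embryos behind each array was not known. The negative library also carried markers of mesenchyme, blood, endothelium and hindbrain, cells that the epithelial label does not name. Above background, 16 of 19 mesenchyme and 10 of 12 hindbrain markers were at least 2-fold higher there, among them the neural regulator Zic1 at 1523.2 against 14.2. The otic epithelial gene Oc90 read 1405.7 in the negative and 939.8 in the positive library. It was the 1 epithelial marker of 21 that was higher in the negative library, and 19 were at least 2-fold higher in the positive library. There are no replicates, so no difference can be set against a spread between samples, and no p-value is given.

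MMPs are zinc-dependent proteases, secreted or held at the cell membrane, that cut collagens, laminins, fibronectin and other matrix proteins. ADAMs are transmembrane relatives that shed the outer parts of membrane proteins such as Notch receptors, growth factor precursors and adhesion molecules. ADAMTS proteases are secreted, and several cut versican and aggrecan or trim procollagens. TIMPs and Reck hold these enzymes in check, and in the best-known circuit Mmp14 and Timp2 together bind and activate the proenzyme of Mmp2.

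The negative library had higher signals for Mmp2 and for 3 of the 5 inhibitors, Timp1, Timp3 and Reck. The versican-cleaving protease gene Adamts9 was higher in the positive library. It was 1 of 30 genes above background, near the 2.96% of all genes at least 2-fold higher there. Timp1 and Adamts9 were each past 2-fold in only 7 of 10 other settings of floor, scaling and probe set choice. Membrane-type MMPs and the main sheddases, Adam10 and Adam17, were within 2-fold, as were most genes above background. For Mmp23 only a lowest possible ratio could be given. Values are MAS5 signals, which are linear intensities. A floor of 12.3 in the positive and 12.4 in the negative library marks the level at or below which a signal was not told from background. Of the 38 genes, 30 were above the floor in at least 1 library, 27 of them in both, and 8 were at or below it in both.

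Of the 30 genes above the floor, 7 were at least 2-fold higher in the negative cells, where 7.02% of all 13098 genes above the floor were. In the other direction, 1 was at least 2-fold higher in the positive cells, where 2.96% of all genes were. The other 22 were within 2-fold, Mmp23 by its lowest possible ratio, as were 11790 of all genes above the floor. Of the 7, Adamts3 and Adamts20 passed the floor only in the negative cells, which fixes their direction. The median log2 ratio of EGFP-positive over EGFP-negative was -0.28 over the 30 genes, against 0.01 over all genes. Over all genes 388 were at least 2-fold higher in the positive and 920 in the negative cells. That split was 503 and 751 after quantile normalization, and 222 and 1317 when arrays were centred on hybridisation controls, which lowered the median of all genes by 0.25 on the log2 scale. Among the protease and inhibitor genes the same 2 settings gave 2 against 5 and 0 against 8.

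At 1.5-fold, 9 of the 30 were higher in the negative cells (13.5% of all genes) and 2 in the positive cells (7.99%). At 3-fold, Timp3 and Adamts20 were higher in the negative cells (3.47% of all genes) and 0 in the positive cells (0.794%). At 4-fold, 1 gene, Timp3, was left in the negative cells (2.34% of all genes) and 0 in the positive cells (0.282%).

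As a partial technical error, the log2 ratios of different probe sets of 1 gene had an SD of 0.304 over 5524 genes. The SD was 0.399 where the mean signal was under 50, 0.318 from 50 to 200 and 0.243 above that. Differences between embryos, between sorts and between arrays are not part of it.

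**Figure D1:**
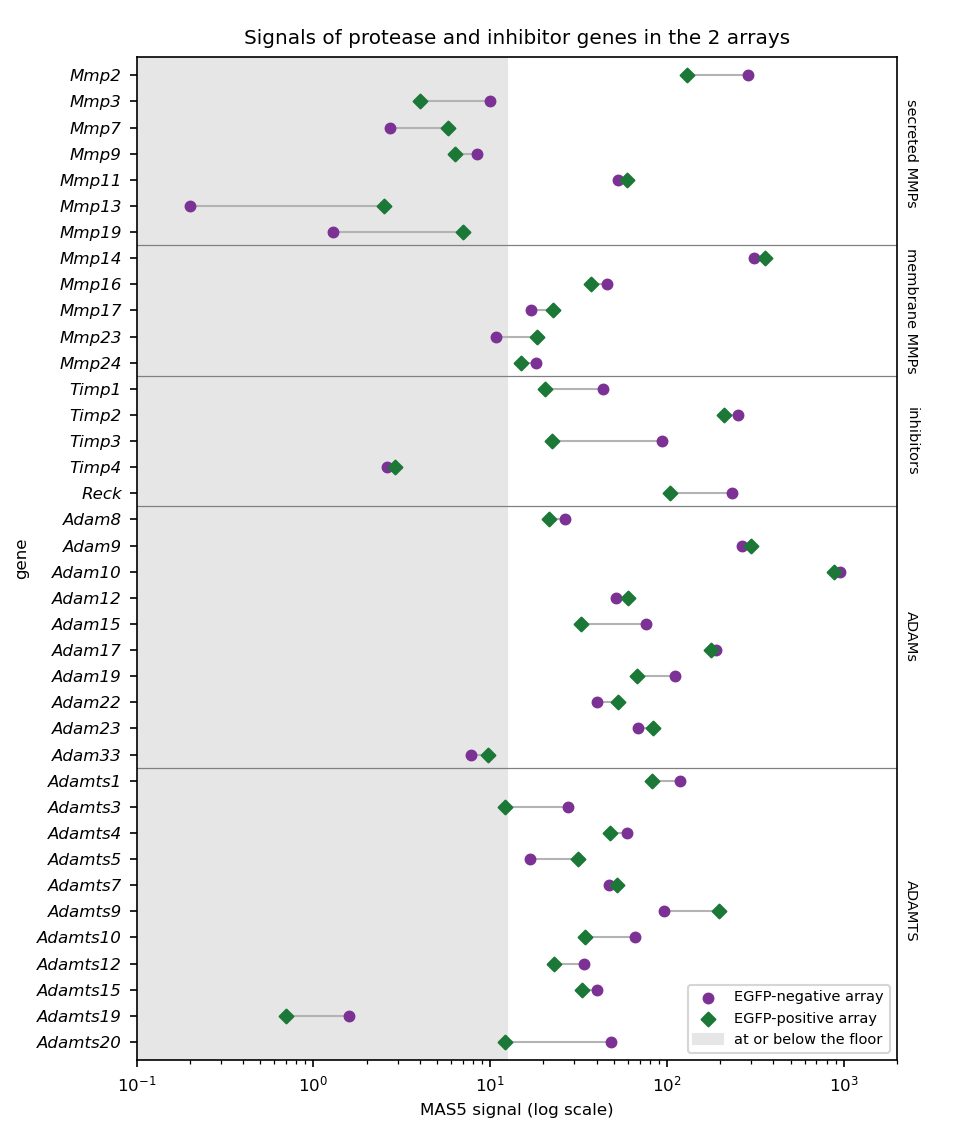
MAS5 signal on a log scale of the probe set representing each gene, with circles for the EGFP-negative and diamonds for the EGFP-positive array, 1 array each, and no error bars because there are no replicates. Shading marks signals at or below the floor, and the EGFP-negative and EGFP-positive points lie at 94.3 and 22.3 for Timp3 and at 95.8 and 195.9 for Adamts9.

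Among the inhibitors, Timp3, which encodes the TIMP that stays bound to matrix and also inhibits Adam17 and aggrecanases, had a signal of 94.3 in the negative and 22.3 in the positive cells, 4.23-fold higher in the former. The log2 ratios of its other 3 probe sets ran from -2.38 to -1.31, so that all 4 were past 2-fold. In 2 of these probe sets the positive signal, 9.9 and 7.5, was below the floor. Timp3 stayed past 2-fold in all 10 other settings of floor, scaling and probe set choice, from -2.33 to -1.50.

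Reck encodes a membrane-anchored inhibitor of Mmp2, Mmp9 and Mmp14. Its 1 probe set read 232.0 in the negative and 103.7 in the positive cells, 2.24-fold higher in the negative cells. It was past 2-fold in all 10 other settings. Those of floor and probe set choice could not move 1 probe set so far above the floor. A pseudocount of 16 gave a log2 ratio of -1.05 and centring on hybridisation controls -1.41. Timp1, a soluble inhibitor of many MMPs, also has 1 probe set, which read 43.6 and 20.4, 2.14-fold higher in the negative cells. The Timp1 difference was within 2-fold with a floor at the 60th percentile, with a pseudocount of 16 and after quantile normalization, at log2 ratios of -0.39, -0.71 and -0.91.

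Timp2, the inhibitor that also takes part in activating Mmp2, was read at 252.4 in the negative and 209.5 in the positive cells. Its 4 other probe sets above the floor had log2 ratios from -0.55 to 0.06, lying on both sides of no difference and within 2-fold. Timp4 was below the floor in both libraries, at 2.6 and 2.9. The 4 inhibitors above the floor had a median log2 ratio of -1.13, so Timp2 was the one that was not past 2-fold.

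Among secreted MMPs, Mmp2 encodes gelatinase A, which degrades denatured collagen and type IV collagen of basement membranes. It had a signal of 287.4 in the negative and 129.4 in the positive cells, 2.22-fold higher in the negative cells. Its second probe set read 313.3 against 83.1, a log2 ratio of -1.91, and Mmp2 was past 2-fold in all 10 other settings. Both its signals lay above every floor tried, so the floor settings could not change its ratio. Mmp11, or stromelysin 3, which is activated inside the cell before secretion, was read at 53.2 in the negative and 59.1 in the positive cells and thus differed little.

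The other 5 secreted MMPs measured were at or below the floor in both libraries. They were Mmp3 (stromelysin 1), Mmp7 (matrilysin), Mmp9 (gelatinase B), Mmp13 (collagenase 3) and Mmp19. Their signals ran from 0.2 to 10.0 in the negative cells and from 2.5 to 7.0 in the positive cells. Signals this low carry no order, and no ratio is given for them.

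Promoter sequence was set beside these levels for Timp3 and Timp1, inhibitors that were higher in the negative cells, and for Mmp3 and Mmp13, secreted MMPs that were at the floor. RefSeq windows of 250 bases before the annotated start (GRCm38.p6) were found for 26 of the 40 genes. They were searched on both strands for an AP-1 element (TGANTCA), a GC box (GGGCGG) and a TATA box (TATAAA). The 4 windows below run 5′ to 3′ to the base before the start, and capitals mark the matches.
Timp3, chr10:86300162-86300411, plus strand: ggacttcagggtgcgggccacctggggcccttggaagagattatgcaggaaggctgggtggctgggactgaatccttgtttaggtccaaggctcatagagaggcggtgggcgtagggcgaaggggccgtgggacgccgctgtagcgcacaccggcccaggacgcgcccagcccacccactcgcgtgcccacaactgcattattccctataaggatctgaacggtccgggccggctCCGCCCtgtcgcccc
Timp1, chrX:20869916-20870165, plus strand: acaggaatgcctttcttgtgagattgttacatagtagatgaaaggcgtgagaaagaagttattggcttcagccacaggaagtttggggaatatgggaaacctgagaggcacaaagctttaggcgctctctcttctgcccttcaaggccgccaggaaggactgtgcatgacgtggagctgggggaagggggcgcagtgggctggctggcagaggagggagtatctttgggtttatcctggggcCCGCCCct
Mmp3, chr9:7445572-7445821, plus strand: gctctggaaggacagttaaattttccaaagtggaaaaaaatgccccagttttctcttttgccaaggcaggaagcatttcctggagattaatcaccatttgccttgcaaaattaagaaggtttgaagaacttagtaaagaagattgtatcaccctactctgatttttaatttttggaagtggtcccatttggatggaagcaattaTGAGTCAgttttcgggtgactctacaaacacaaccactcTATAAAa
Mmp13, chr9:7272264-7272513, plus strand: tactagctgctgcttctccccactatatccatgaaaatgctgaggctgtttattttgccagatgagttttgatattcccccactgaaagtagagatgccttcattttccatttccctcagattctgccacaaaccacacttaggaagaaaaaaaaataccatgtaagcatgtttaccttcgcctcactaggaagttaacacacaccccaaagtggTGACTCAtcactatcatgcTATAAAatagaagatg

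The Timp3 and Timp1 windows held a GC box on the opposite strand, beginning 15 and 8 bases before the start, and neither of the other motifs. The window of Reck, the third inhibitor higher in the negative cells, held 2 GC boxes and is not printed because it overlaps the annotated gene. The Mmp3 and Mmp13 windows held an AP-1 element, beginning 46 and 35 bases before the start, and a TATA box, beginning 7 and 16 bases before it. Among 4 genes with a window that were at the floor in both libraries (Mmp3, Mmp7, Mmp13 and Timp4), 3 held an AP-1 element, 3 a TATA box and 0 a GC box. Mmp3, Mmp7 and Mmp13 made up both counts of 3. They lie close together on chromosome 9, so they may not be separate cases. The other genes at the floor had no window. Among 20 genes with a window that were above the floor, 1 held an AP-1 element, 1 a TATA box and 15 a GC box. Of the genes not measured, Mmp15 and Adamts2 each held a GC box. A gene was counted where any of its windows held the motif. Windows that overlap the annotated gene were counted too, among them those of Reck and Adam10 and the Adam19 window with the AP-1 element. Counted the same way, 7.82% of all 27025 genes with a window held the AP-1 element, 14.3% the TATA box and 35.4% the GC box. The motifs were chosen with the levels known, a match is only a run of letters, and these counts describe the windows and nothing more.

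None of the 5 membrane-bound MMPs measured reached 2-fold, but Mmp23, with its negative signal below the floor, has only a lowest possible ratio. Mmp14, the membrane-type protease that activates Mmp2, had signals of 309.7 in the negative and 359.9 in the positive cells. Its other 2 probe sets had log2 ratios of 0.29 and 0.60, against 0.22 for the first. Centring on hybridisation controls took the first to -0.03, so no direction is given. Mmp14 and Mmp2, enzyme and substrate in the activation circuit, thus had log2 ratios of 0.22 and -1.15, and the difference between them was not tested.

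Mmp16, another transmembrane MMP, was read at 45.7 and 37.2 in the negative and the positive cells, with log2 ratios of its other 2 probe sets above the floor of -0.47 and -0.08. Mmp17, which is tethered by a lipid anchor, was read at 17.0 and 22.7, and Mmp24, a transmembrane MMP of neural tissue, at 18.2 and 15.0. Mmp23, a type II membrane protease, was above the floor only in the positive cells, at 18.4 against 10.8, at least 1.48-fold higher there. These 3 genes lie close to the floor, where the error between probe sets was highest.

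**Figure D2:**
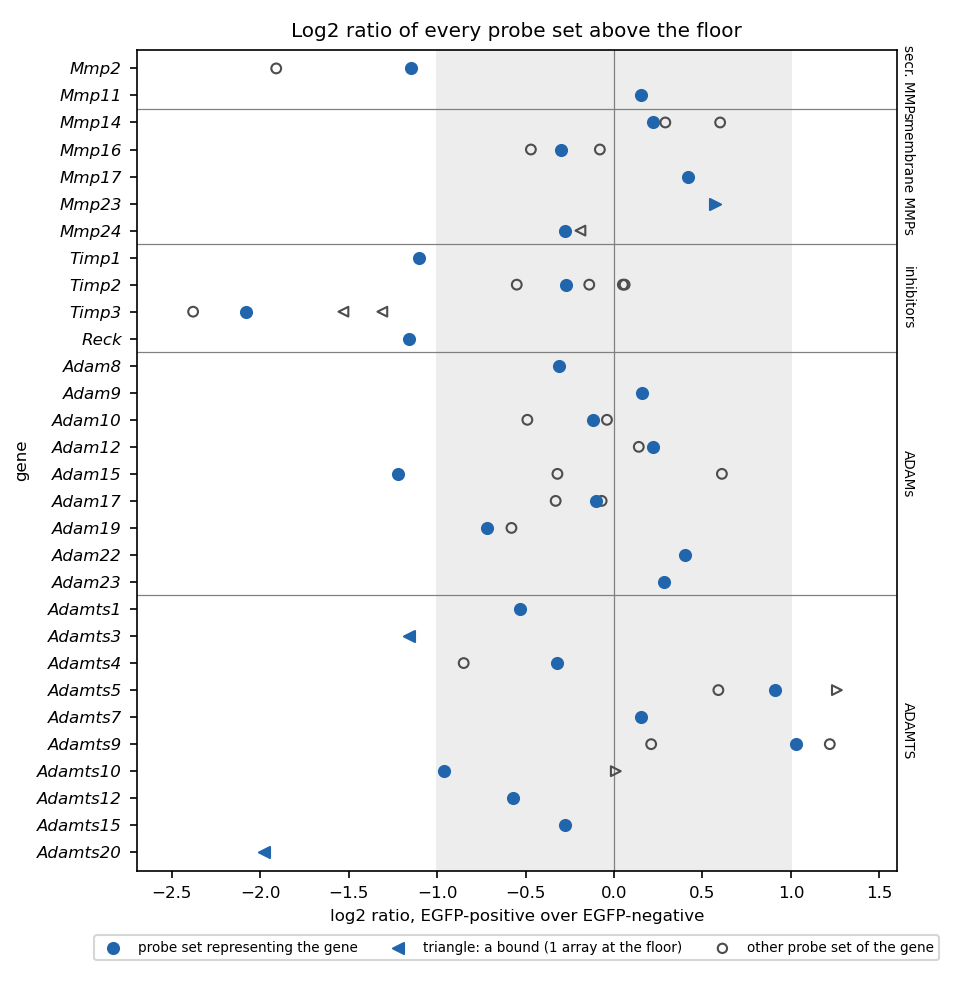
Log2 ratio of EGFP-positive over EGFP-negative for each probe set above the floor in at least 1 array, by gene. Filled symbols are the probe set representing the gene, open symbols its other probe sets, triangles bounds with 1 array at the floor, and shading the range within 2-fold. All 4 probe sets of Timp3 and both of Mmp2 lie left of the shading, whereas those of Adam15 lie from -1.22 to 0.61.

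Of the 10 ADAM genes, 9 were above the floor and 8 of these were within 2-fold, as were 11790 of all 13098 genes above the floor. Adam10, the main protease for ligand-induced Notch cleavage and for cadherin shedding, read 953.4 in the negative and 879.0 in the positive cells. Its other 2 probe sets above the floor had log2 ratios of -0.49 and -0.04. Adam17, which sheds tumour necrosis factor and several EGF receptor ligands, read 190.4 and 177.7, with its other 2 probe sets at -0.33 and -0.07. Neither sheddase differed by 2-fold in any of the 10 other settings.

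Adam15, a membrane protease with an integrin-binding disintegrin domain, was the 1 ADAM gene past 2-fold, at 75.7 in the negative and 32.6 in the positive cells. That difference, 2.32-fold, came from a probe set with the _x_at suffix, which on this platform marks probes that may also match other transcripts. Its other 2 probe sets above the floor had log2 ratios of -0.32 and 0.61. Leaving out such probe sets gave -0.32, averaging the gene's probe sets gave -0.31 and a pseudocount of 16 gave -0.92, none past 2-fold.

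Adam19, or meltrin beta, known for neuregulin shedding and heart development, read 111.5 in the negative and 67.5 in the positive cells, a log2 ratio of -0.72, with its second probe set at -0.58. Adam9 read 267.4 and 298.2, and Adam12, or meltrin alpha, 51.7 and 60.1. Adam8, a protease best known from myeloid cells, read 26.6 and 21.4. All 4 were within 2-fold in every other setting.

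Adam22 and Adam23 lack a working catalytic site and act as receptors for Lgi proteins at synapses. They read 40.1 and 68.2 in the negative against 53.0 and 83.0 in the positive cells, log2 ratios of 0.40 and 0.28. Each rested on 1 probe set above the floor. Adam33 was below the floor in both libraries, at 7.8 and 9.7.

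ADAMTS genes held differences both ways. Adamts9, which cuts versican and aggrecan and acts in embryonic tissue remodelling, had a signal of 195.9 in the positive and 95.8 in the negative cells, 2.04-fold higher in the positive cells. Of its other probe sets, 1 read 115.4 against 49.7, a log2 ratio of 1.22, and 1 read 25.1 against 21.7, a log2 ratio of 0.21. It fell within 2-fold in 3 of 10 other settings, at 0.92 with a pseudocount of 16, 0.78 when centred on hybridisation controls and 0.82 as the mean of its probe sets.

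Adamts5, an aggrecanase, lay just within 2-fold, at 31.3 in the positive and 16.7 in the negative cells, a log2 ratio of 0.91. Its other 2 probe sets above the floor had log2 ratios of 0.59 and 1.26, the second a bound, so all 3 were higher in the positive cells. After quantile normalization it passed 2-fold, at 1.12.

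Adamts20, a close relative of Adamts9 that is needed for melanoblast survival in mouse skin, went the other way. It read 48.5 in the negative cells and 12.2, just under the floor, in the positive cells, at least 3.94-fold higher in the negative cells. It has 1 probe set, and raising the floor to the 60th percentile took its log2 ratio to -0.54. Adamts3, which trims procollagen II and activates Vegfc, read 27.4 against 12.1, at least 2.23-fold higher in the negative cells. With a floor of 20, a pseudocount of 16 and quantile normalization, Adamts3 stood at -0.45, -0.63 and -0.93, within 2-fold.

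Adamts10, which associates with fibrillin microfibrils, lay just within 2-fold at 66.3 in the negative and 34.2 in the positive cells, a log2 ratio of -0.96. Its second probe set was at 0.01, with the negative signal at the floor. Centring on hybridisation controls took Adamts10 past 2-fold, at -1.21, and the mean over its probe sets was -0.47. Adamts1, which cuts versican and aggrecan, read 119.2 and 82.4, and Adamts4, an aggrecanase, 59.7 and 47.7. Adamts12, which cuts cartilage oligomeric matrix protein, read 33.9 and 22.9, and its relative Adamts7 47.2 and 52.5. Adamts15, another versican-cleaving protease, read 40.2 and 33.1. These 5 were within 2-fold, with log2 ratios from -0.57 to 0.15. Adamts19 was below the floor in both libraries, at 1.6 and 0.7.

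Agreement between probe sets varied. Of the 81 probe sets, 57 were above the floor in at least 1 library, of which 11 were at least 2-fold higher in the negative and 3 in the positive cells. Over all 24255 such probe sets naming 1 gene, the shares were 6.01% and 2.6%, and probe sets of 1 gene are not independent. Of the 15 genes that had at least 2 probe sets above the floor, 12 had all of them on 1 side of no difference. The exceptions were Timp2, Adam15 and Adamts10. Another 15 genes, Reck, Timp1 and Adamts20 among them, rested on 1 such probe set.

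Markers of other cell types differed between the same libraries. Of 20 mesenchyme markers, 19 were above the floor and 16 were at least 2-fold higher in the negative cells, with a median log2 ratio of -3.12. Their summed signal was 7631 in the negative and 652.8 in the positive cells, and 8 of the 20 were at the floor in the latter. Twist1, a defining regulator of mesenchyme, read 266.5 against 11.5. The one mesenchyme marker higher in the positive cells was Dcn, which encodes decorin, at 41.9 against 30.7. No marker of any of the lists had a signal of 0.

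All 16 endothelial markers were above the floor and 14 were at least 2-fold higher in the negative cells, with summed signals of 1384 against 185.1. All 16 leukocyte and all 11 erythroid markers above the floor were past 2-fold the same way, with sums of 1897 against 130.9 and 21779 against 3013. Of 12 hindbrain markers above the floor, 10 were higher in the negative and 1, Irx3, in the positive cells, with sums over the list of 3052 against 1785. Irx3 alone read 372.4 against 1700.5, and without it the sums were 2680 and 84.1. Of 11 neural crest and glia markers, 7 were higher in the negative and 3 in the positive cells, with sums of 2231 against 2751. The 3 were Sox10 (403.7 against 889.3), Erbb3 (511.1 against 1405.0) and Kit (103.3 against 266.6), and the other 8, such as Ednrb at 368.3 against 32.7, summed to 1213 and 190.0. Irx3, Sox10, Erbb3 and Kit were named, and the sums without them taken, after their values were seen. In contrast, 19 of 21 epithelial markers were at least 2-fold higher in the positive cells, with a median log2 ratio of 1.42 and sums of 6167 in the negative against 13937 in the positive cells. Oc90 was the 1 that was higher in the negative cells.

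The part of these cell types in the protease and inhibitor signals was not tested. In such pooled RNA, fewer cells of a type and less RNA per cell cannot be told apart. Mesenchyme markers ran from -4.78 to 0.45, with a median of -3.12. Dcn alone set the upper end, and the next highest was Tcf21 at -0.42, a bound. Timp3 and Mmp2, at -2.08 and -1.15, lay inside the range also without Dcn. Mmp14, Timp2, Adam10 and Adam17, which were within 2-fold, lay between Tcf21 and Dcn, so inside the range only through Dcn.

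Other genes of the protease system were read from lists that hold none of the 40. Of 38 further metzincin genes and ADAMTS-like genes with a probe set, 9 were above the floor, with a median log2 ratio of -0.06. Only Adamts16 was past 2-fold, at 34.0 in the negative and 16.4 in the positive cells, and its other probe set went the opposite way, at 1.01. Adam11, which like Adam22 has no protease activity, read 65.4 in the positive and 37.9 in the negative cells.

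Of 20 activators and regulators above the floor, 5 were at least 2-fold higher in the negative and 1 in the positive cells, with a median of -0.49. Over all genes the shares were 7.02% and 2.96%. Plat, or tissue plasminogen activator, read 105.4 in the negative and 33.5 in the positive cells, 3.15-fold higher, but its other probe set was at 0.07. Pcsk5, a proprotein convertase, was 3.12-fold higher in the negative cells, with its other probe set at -0.38. Tspan33, a tetraspanin that steers Adam10 to the cell surface, read 329.7 against 123.3, 2.67-fold higher, with its other 3 probe sets from -1.55 to -0.45. The remaining 2 were Thbs1 and Cd44, at 113.3 against 52.1 and 110.7 against 7.6.

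The 1 regulator higher in the positive cells was Rhbdf2, which encodes iRhom2, a partner required for Adam17 to mature and act. It read 68.9 in the positive and 7.9 in the negative cells, at least 5.56-fold higher. Its relative Rhbdf1, or iRhom1, read 263.9 and 259.3, so of the 2 iRhom genes 1 was past 2-fold. Rhbdf1, Rhbdf2, Thbs1 and Cd44 were named after their values were seen, and any other probe sets of these genes were not compared.

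Of 26 matrix substrates above the floor, 11 were at least 2-fold higher in the negative and 0 in the positive cells, with a median of -0.51. Among all genes above the floor, 7.02% and 2.96% were. The 3 named by the largest ratio were Col5a2 (595.8 against 14.4), Nid1 (440.7 against 14.0) and Col3a1 (2733 against 135.5). The list shares 5 genes with the mesenchyme markers, so it is no separate measure of them. Substrate genes such as these spanned log2 ratios from -5.37 to 0.91, and the protease and inhibitor genes from -2.08 to 1.03.

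**Figure D3:**
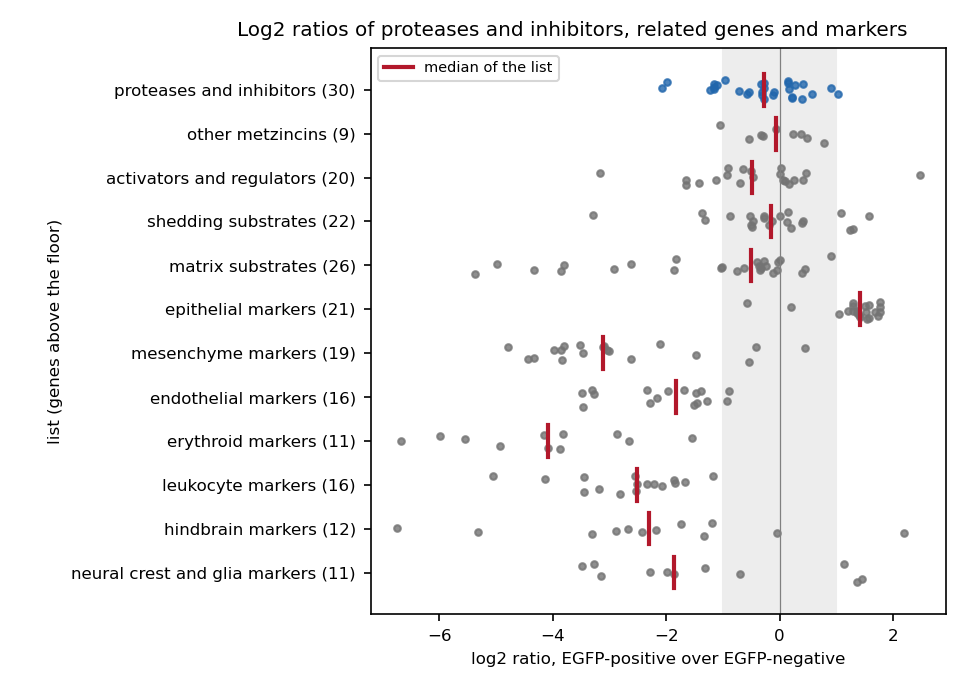
Log2 ratio of EGFP-positive over EGFP-negative for each gene above the floor, 1 point per gene with bounds at their bound, by list, with the number of genes in brackets and a bar at the list's median. Vertical scatter within a list only separates points, and shading marks the range within 2-fold. Medians are -0.28 for the proteases and inhibitors, -3.12 for the mesenchyme markers and 1.42 for the epithelial markers. Over all genes above the floor, not drawn, the median was 0.01.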

How the data were processed

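Gene expression was read on 2 Affymetrix arrays, 1 per sorted population, from biotin-labelled cRNA. Per the submitters' processing notes the deposited values were made with MAS5 5.0, which gives 1 linear intensity (signal) per probe set. In the deposited intensities the mean without the lowest and highest 2% was 100.0 on both arrays, so they had been scaled to a common level. Detection calls and scanner files were not used here.

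Gene names came from the platform's annotation, updated through gene identifiers in the GRCm38.p6 RefSeq table. Of 45101 probe sets, 34958 had a single gene, 932 had several and 9211 were not named here. For each gene the probe set with the highest mean signal was used. Signals were raised to a floor, the higher of the array's 40th percentile (10.4 in the positive, 12.4 in the negative) and its highest signal among 27 probe sets for Bacillus subtilis transcripts (12.3 and 9.0). Where 1 signal was at the floor the ratio is a bound, written "at least" where a fold is given. The limit was 2-fold, a log2 difference of 1. The number of arrays limits the precision. The gene lists, roles and naming rule (every protease and inhibitor gene, and up to 3 genes per other list with the largest ratios above the floor in both libraries) were chosen with earlier results of these data known. The ratio procedure was tested on simulated data. Python 3.11.15, numpy 2.4.6, pandas 2.3.3 and matplotlib 3.10.9 were used.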

Additional observations from a re-analysis of the deposited data

How the results depend on the processing

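The 10 other settings of floor, scaling and probe set choice left Mmp2, Timp1, Timp3, Reck and Adam15 lower in the positive cells in each setting. Timp1, Timp3 and Adam15 were bounds with the floor at the 60th percentile. In the main setting the floor fixed the direction of Adamts3 and Adamts20. With the floor at the 40th percentile alone, Adamts3 and Adamts20 were above it in both libraries, at log2 ratios of -1.18 and -1.99. Without bounds 5 of 27 genes were at least 2-fold higher in the negative cells (4.82% of all genes). Of 288 gene values under these settings, 273 moved by less than the SD between probe sets, 15 moved further, and 0 genes past 2-fold changed sign. The 273 include values that a setting could not move, such as a gene with 1 probe set under another probe set choice. The 7 genes at least 2-fold higher in the negative cells became 4 of 23 with the floor at the 60th percentile (4.65% of all genes) and 4 with a pseudocount of 16 (4.94% of all genes), 2 at a 3-fold limit (Timp3 and Adamts20) and 1 at a 4-fold limit (Timp3). In the other settings, including a 1.5-fold limit with 9, the count lay between 5 and 9. Mmp2, Timp3 and Reck were past 2-fold in all 10, some of which could not move them. The 1 gene higher in the positive cells became 2 after quantile normalization and at a 1.5-fold limit (Adamts9 with Adamts5), and 0 with a pseudocount of 16, with arrays centred on hybridisation controls, with the mean over probe sets and at 3-fold and 4-fold limits. Median log2 ratios of the protease and inhibitor genes ran from -0.53 with hybridisation controls to -0.13 after quantile normalization, and from -0.32 to -0.18 relative to the median of all genes. The cause of these changes was not tested. No paired analysis was possible because there is 1 array per group, and no array could be left out. Signals near the floor limit the dim genes, Mmp17, Mmp23, Mmp24, Adamts3, Adamts5, Adamts20 and Timp1 among them.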

Other observations

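Genes whose products ADAM proteases shed were read in the same libraries. Of 22 above the floor, 4 were at least 2-fold higher in the positive and 3 in the negative cells, with a median log2 ratio of -0.15. Among all genes above the floor, 2.96% were higher in the positive and 7.02% in the negative cells by that limit. Epcam and Cdh1, both also epithelial markers, read 1610 against 538.6 and 777.5 against 315.4 in the positive and the negative cells. The Notch ligand gene Jag1 read 1133 against 533.0 and the EGF receptor ligand gene Tgfa 170.0 against 71.5. In the other direction, Kitl, which encodes the ligand of the Kit receptor, read 373.0 in the negative and 38.3 in the positive cells, 9.74-fold higher, with its other 3 probe sets from -2.10 to -0.40. The chemokine gene Cxcl12 and the Notch ligand gene Dll3 read 362.6 against 141.1 and 170.0 against 67.9. The receptor genes Notch1, Notch2 and Notch3, whose products Adam10 cuts, were within 2-fold, at 317.6, 326.8 and 363.1 in the positive against 286.3, 393.7 and 363.8 in the negative cells. Cdh1, Jag1, Tgfa, Dll3 and the Notch genes were named after their values were seen, and any other probe sets of these genes were not compared.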
